A study of Mus musculus with 10 samples.

Results

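The Notch receptors, ligands and target genes described here are 10 genes of 35705 in a TPM table of mouse knee cartilage: the receptors Notch1, Notch2, Notch3 and Notch4, the ligands Jag1, Jag2 and Dll4, and the transcriptional targets Hes1, Hey1 and Heyl. They were chosen by gene symbol, after the transcripts of the table had been assigned to mouse genes and the TPM of each gene's transcripts summed. The libraries came from 10 mice, 5 wild-type controls and 5 Mir324-null mice, which lack a microRNA. Each mouse gave 1 library of total RNA, made from cartilage caps cut from the medial side of the knee. No treatment was given, and age, sex, strain, litter, how the allele was made and sequencing batch are not given in the sources used here. Mice are called wild-type 1 to 5 and null 1 to 5 after their labels, and nothing in the labels pairs equal numbers. TPM, the abundance of a transcript relative to the library total after allowing for its length, can be compared between genes, but it carries no read counts, so sequencing depth is unknown.

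Notch receptors sit in the cell membrane and are activated by ligands of the Jagged and Delta-like families on neighbouring cells. Ligand binding lets proteases, among them ADAM10 and γ-secretase, cut the receptor, and its freed intracellular part enters the nucleus, joins the DNA-binding protein RBPJ and switches on genes such as those of the Hes and Hey families of repressors. In the skeleton the pathway is known to act in chondrocytes and to restrain the maturation of osteoblasts. In vessels Notch4 and Dll4 are known mainly from endothelial cells and Notch3 from smooth muscle cells and pericytes.

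Mir324 lies on the plus strand of chromosome 11, with its hairpin at 70012043 to 70012131 in GRCm38.p6. Its mature strands are shown because a messenger RNA can be repressed through a 3′ UTR site that is complementary to the seed, bases 2 to 8, here in capitals, as annotated by RefSeq and read 5′ to 3′. The strands have different seeds. No value of the microRNA was analysed here, and the genotype labels were therefore not checked against it.
miR-324-5p: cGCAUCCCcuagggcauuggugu
miR-324-3p: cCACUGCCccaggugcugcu

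Of the 10 genes, 3 had such a site in their longest annotated 3′ UTR (GENCODE M21, GRCm38), and each is shown with its flanks and the 7 bases matching the seed in capitals. Notch1 had 1 site for each strand in a 3′ UTR of 1628 bases, at bases 11 and 1405 counted from the first base after the stop codon, and the first is an 8mer, which ends in an adenosine opposite base 1 of the microRNA.
Notch1, miR-324-5p: acagagatgtGGGATGCaggaccccagc
Notch1, miR-324-3p: gccttttggggGGCAGTGtctgtgccatg
Dll4, miR-324-3p: ctccagagagtGGCAGTGgccctagtggg
Heyl, miR-324-3p: gtcactcagagGGCAGTGtatcctctacc

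The Dll4 site began at base 344 of 1329 and the Heyl site at base 2838 of 3245. Among 12601 genes with an annotated 3′ UTR, of median length 1149 bases, 8.50% carried a 7-base match to the miR-324-5p seed and 15.4% to the miR-324-3p seed, so matches in 1 and 3 of 10 genes are a description of these genes and not a measured effect. The other 7 genes, including Notch3 and Hey1, had no match to either seed in this window. In the promoter windows of 7 of the 10 genes in RefSeq's table for GRCm38.p6 (250 bases before to 50 after the start, those of Hes1, Hey1 and Heyl not being in the table), neither TGGGAA nor the longer GTGGGAA that contains it, the core letters of RBPJ sites, occurred on either strand. Of all 32851 windows of 300 bases, 25.6% held TGGGAA and 6.38% held GTGGGAA.

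Between 13386 and 14299 genes per library reached 1 TPM, and libraries were alike, with Spearman correlations of 0.933 to 0.973. Wild-type 1 stood apart at -54.8 on the first principal component (26.7% of the variance), where the others lay between -12.1 and 30.1. Haemoglobin genes took up 11.2% to 19.7% of the TPM in wild-type and 15.8% to 26.1% in null libraries. Of 12 chondrocyte markers, 9 reached the testing threshold of a mean of 1 TPM, among them Prg4, Comp, Acan and Col2a1. Col9a1, Matn1 and Matn3 stayed below 1 TPM in every library, as did the osteoclast marker Calcr. All 11 osteoblast and osteocyte, 16 endothelial and 8 neutrophil markers reached the threshold, and 6 of 7 osteoclast and 7 of 8 erythroid markers. The libraries thus hold more cell types than the labelled chondrocyte. In such bulk samples fewer cells of a type and less RNA per cell cannot be told apart.

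All 10 genes were above 0 in all 10 libraries and all 10 reached the mean of 1 TPM required for testing. Notch2 was the most abundant, at 18.2 ± 2.57 TPM (mean ± SD over the 10 mice), ahead of Hes1 at 13.6 ± 7.67 and Notch1 at 11.6 ± 2.38 TPM. Below them came Hey1 at 5.68 ± 2.40, Notch3 at 5.12 ± 1.59, Notch4 at 4.91 ± 1.27, Heyl at 3.77 ± 1.78, Jag1 at 3.59 ± 1.18, Jag2 at 2.03 ± 0.843 and Dll4 at 1.70 ± 0.551 TPM. Only 2 steps between neighbours in this order were larger than the SD of their difference over the mice, from Notch1 down to Hey1 and from Jag1 down to Jag2, each present in 10 of 10 mice. For the other 7 neighbouring pairs the mean step was within that SD, which describes the spread and does not test whether the levels differ. All 4 receptors averaged above all 3 ligands in this count. Over protein-coding transcripts only, 4 steps exceeded the SD of their difference, from Notch2 to Notch1, Hes1 to Hey1, Notch3 to Heyl and Jag1 to Notch4, and Notch4 then stood below Jag1 at 1.59 ± 0.573 TPM. Notch2 was also the steadiest, with a coefficient of variation of 14.2% over the 10 mice, while Hes1 varied most at 56.4% through the 33.7 TPM of wild-type 1.

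**Figure D1:**
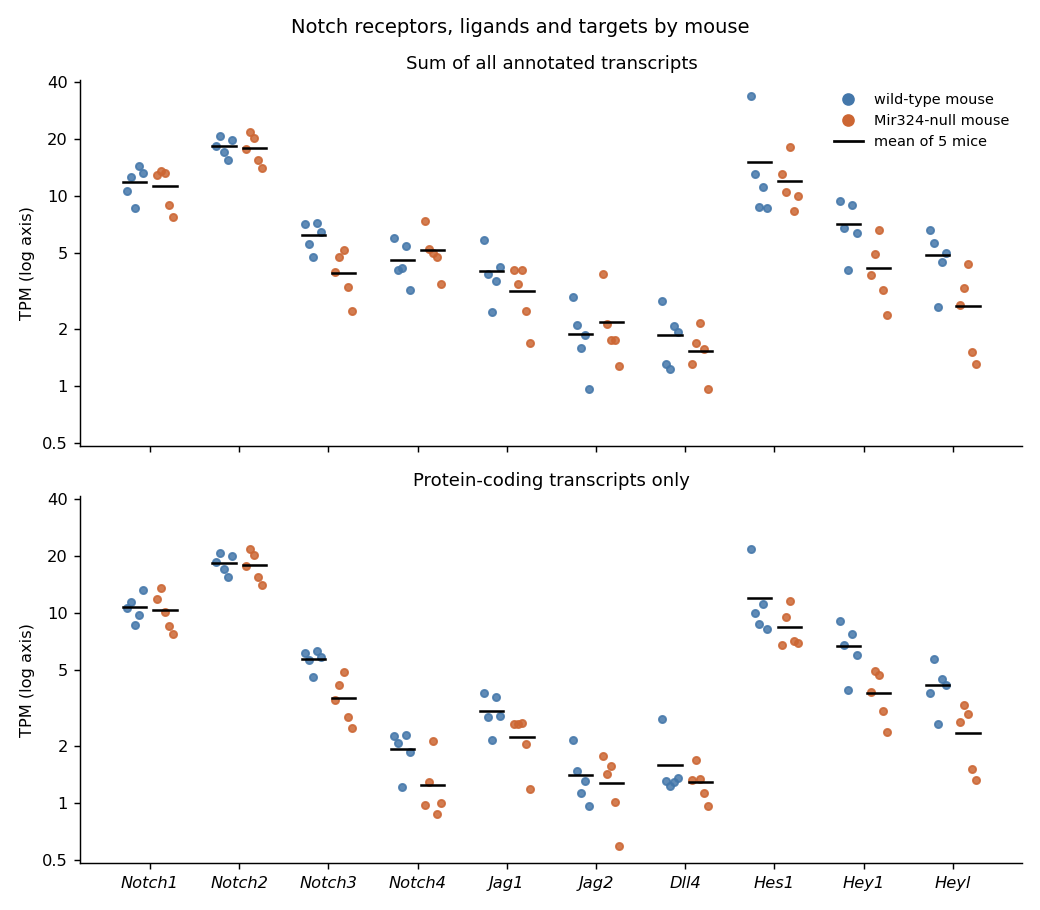
TPM of each of the 10 genes on a log axis, with 1 point per mouse, coloured by genotype, and a black line at the mean of 5 mice, for the sum of all transcripts (top) and protein-coding transcripts only (bottom). Notch3, Hey1 and Heyl have lower means in null mice with overlapping points, and Hes1 has 1 wild-type mouse at 33.7 TPM in the top panel.

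Which of these genes differ in cartilage without Mir324 was asked next. None of the 10 passed the test across all genes (limma on log2(TPM + 1), adjusted p under 0.05). Of all 13841 genes tested 0% passed, and the smallest adjusted p of any gene was 0.277. At an unadjusted p under 0.05, 1603 genes were called, and among the 10 genes Notch3, Hey1 and Heyl, all lower in null mice, against 7.3% of all genes tested in that direction. Of the 10 genes 8 were lower and 2 higher in null mice, with a median difference of -0.16 on the log2(TPM + 1) scale, against 60% lower and a median of -0.05 over all genes tested. The split depended on the scaling: with TPM rescaled without haemoglobin genes 6 of the 10 genes and 42.5% of all genes were lower. With median ratio scaling it was 7 of the 10 and 49.3%, and with quantile normalization 8 of the 10 and 49.2%. For genes of few TPM this scale gives a smaller difference than the ratio of the means.

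Among the receptors, Notch3 had the largest difference. It measured 7.19, 5.64, 4.78, 7.24 and 6.51 TPM in wild-type 1 to 5 and 3.99, 4.82, 5.20, 3.31 and 2.48 TPM in null 1 to 5. All 5 null mice lay below the wild-type mean, but the groups overlapped, since null 2 and null 3 were above wild-type 3. The means were 6.27 ± 1.05 and 3.96 ± 1.11 TPM (SD, n = 5 each), a difference of the mean of -36.9%. On the log2(TPM + 1) scale the difference was -0.57 (SE 0.177, limma p = 0.00752, adjusted p = 0.319), and the exact permutation test gave p = 0.0238, where 0.00794 is the smallest p it can give. It kept its direction in all 21 alternative settings, with a limma p between 0.000892 and 0.0244 and an adjusted p between 0.179 and 0.580. Settings that changed only the filter, the replicate block or limma's estimate of the spread left the difference at -0.57 by design. Those leaving out 1 mouse reuse the other mice, so the settings are not independent checks.

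Notch1 and Notch2, the most abundant receptors, had nearly equal means in both genotypes. Notch1, which carries the 5p and 3p seed matches above, measured 10.6, 12.7, 8.72, 14.4 and 13.2 TPM in wild-type and 12.9, 13.7, 13.2, 9.01 and 7.81 TPM in null 1 to 5. Null 1, 2 and 3 lay within the upper part of the wild-type range, and null 5 was below every wild-type mouse. The difference was -0.08 (SE 0.179, adjusted p = 0.925 by limma, exact permutation p = 0.667). Notch2 measured 18.6, 20.8, 17.1, 15.5 and 19.9 TPM in wild-type and 17.8, 21.8, 20.3, 15.6 and 14.2 TPM in null 1 to 5. The groups covered nearly the same range, and the difference was -0.04 (SE 0.132, adjusted p = 0.948 by limma, exact permutation p = 0.762). For both, the sign of these small differences turned with the scaling or with single mice.

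Notch4 had a mean of 4.61 ± 1.15 TPM in the wild-type and 5.21 ± 1.44 TPM in the null group (SD, n = 5 each), a difference of 0.14 (SE 0.190, adjusted p = 0.857 by limma, exact permutation p = 0.484). This value is a sum over 12 annotated transcripts, most of them short and non-coding, so it does not measure the receptor's messenger RNA alone. The coding transcript Notch4-201, of 6591 bases, made up 32.3% of the gene's TPM but 83.6% of its TPM multiplied by transcript length. The processed transcript Notch4-202, of only 247 bases, made up 20.8% of the TPM and 2.43% by that measure. The coding share of Notch4 TPM was between 13.0% in null 1 and 57.4% in wild-type 5, and averaged 43.0% ± 11.2 in wild-type and 25.2% ± 11.1 in null mice (SD, n = 5 each, exact permutation p = 0.0556).

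Counted over the coding transcript alone, Notch4 measured 2.24, 2.06, 1.20, 2.27 and 1.85 TPM in wild-type and 0.969, 1.28, 2.11, 0.867 and 0.996 TPM in null 1 to 5. Null 3 stood with the upper wild-type mice, null 1, 4 and 5 were below every wild-type mouse, and null 2 was just above wild-type 3. The means were 1.93 ± 0.437 and 1.25 ± 0.509 TPM, and the difference was -0.39 (SE 0.174, limma p = 0.0424, adjusted p = 0.354, exact permutation p = 0.0556). The direction of Notch4 therefore turns with the transcripts counted, and in this setting its level came eighth of the 10 genes in place of sixth.

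**Figure D2:**
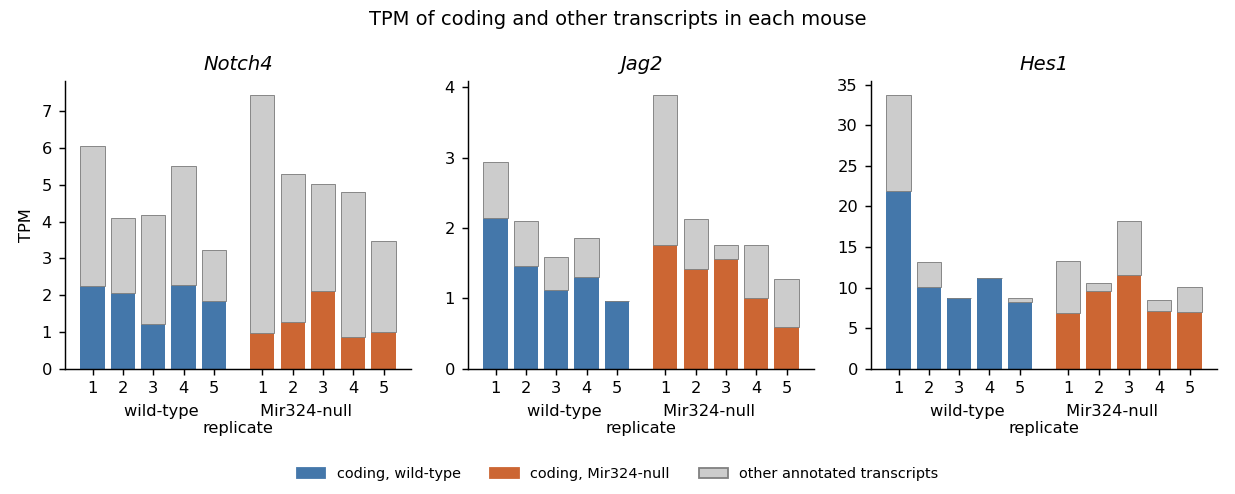
TPM of Notch4, Jag2 and Hes1 in each mouse, with coding transcripts in colour and all other annotated transcripts stacked above them in grey, so that a bar's height is the sum for the gene. For Notch4 the coding part averages 1.93 TPM in the wild-type and 1.25 TPM in the null group, while the tallest whole bar is null 1 at 7.45 TPM.

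Among the ligands, Jag1, whose deficiency in humans causes Alagille syndrome, ranged from 2.47 to 5.93 TPM in wild-type and from 1.69 to 4.08 TPM in the null group. The means were 4.02 ± 1.25 and 3.16 ± 1.05 TPM (SD, n = 5 each), and the difference was -0.28 (SE 0.223, adjusted p = 0.701 by limma, exact permutation p = 0.294). Its coding transcript Jag1-201, at 73.1% of the gene's TPM, gave -0.34 (limma p = 0.0724, adjusted p = 0.431, exact permutation p = 0.0873). Dll4, which guides the sprouting of vessels and carries a miR-324-3p seed match, ranged from 1.22 to 2.81 TPM in wild-type and from 0.960 to 2.16 TPM in the null group. Its difference was -0.17 (SE 0.192, adjusted p = 0.819, exact permutation p = 0.405), and -0.06 without wild-type 1.

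Jag2 measured 2.94, 2.10, 1.59, 1.86 and 0.963 TPM in wild-type and 3.89, 2.13, 1.75, 1.76 and 1.27 TPM in null 1 to 5. Null 1 was the highest of all mice and wild-type 5 the lowest, and the groups overlapped. The difference was 0.12 (SE 0.235, adjusted p = 0.919 by limma, exact permutation p = 0.667). Between 45.3% and 100% of Jag2 TPM came from coding transcripts, and over these alone the difference was -0.09 (SE 0.185, adjusted p = 0.899, exact permutation p = 0.635), so that Jag2, like Notch4, turned its direction, without passing the test either way.

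Of the targets, Hey1 and Heyl, basic helix-loop-helix repressors of the same family, had the largest differences of the 10 genes. Hey1 measured 9.45, 6.79, 4.10, 9.04 and 6.43 TPM in wild-type and 3.84, 4.94, 6.69, 3.19 and 2.37 TPM in null 1 to 5. All 5 null mice lay below the wild-type mean, and wild-type 3 and 5 lay within the null range. The means were 7.16 ± 2.17 and 4.21 ± 1.68 TPM (SD, n = 5 each), a difference of the mean of -41.3% and of -0.66 on the log2(TPM + 1) scale (SE 0.247, limma p = 0.0207, adjusted p = 0.354, exact permutation p = 0.0476).

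Heyl, which carries a miR-324-3p seed match, measured 6.66, 5.71, 2.62, 4.50 and 5.02 TPM in wild-type and 2.66, 3.31, 4.42, 1.51 and 1.31 TPM in null 1 to 5. Wild-type 3 was again among the null mice, and null 4 and null 5 were the lowest. The group means were 4.90 ± 1.51 and 2.64 ± 1.29 TPM (SD, n = 5 each), a difference of the mean of -46.1% and of -0.73 on the log2(TPM + 1) scale (SE 0.266, limma p = 0.0186, adjusted p = 0.350, exact permutation p = 0.0476). Hey1 and Heyl kept their direction in all 21 and all 20 alternatives in which they were tested, among them the settings that cannot change a difference. The limma p of Hey1 was under 0.05 in 18 of its 21.

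Hes1, the most abundant of the targets, measured 33.7, 13.1, 8.76, 11.2 and 8.74 TPM in wild-type and 13.2, 10.5, 18.2, 8.40 and 10.0 TPM in null 1 to 5. Wild-type 1 was far above all other mice, and the remaining 4 wild-type mice lay within the null range. The difference was -0.16 (SE 0.327, adjusted p = 0.920 by limma, exact permutation p = 0.738), and it was 0.16 without wild-type 1. Part of the Hes1 signal came from the retained-intron transcript Hes1-203, of 406 bases, which had 6.30 TPM in wild-type 1, 6.39 TPM in null 1 and 6.65 TPM in null 3. Over the coding transcript the difference was -0.41 (limma p = 0.102, adjusted p = 0.484, exact permutation p = 0.151).

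Over coding transcripts alone, all 10 genes were lower in null mice, with a median of -0.37 against -0.04 and 60.8% lower over all 12292 genes tested this way. No other scaling was tried on the coding or length-weighted differences, so this count may also rest on the scaling. Notch2, whose TPM is 100% coding, was at -0.04 here but at 0.0086 with median ratio scaling. Notch3, Notch4, Hey1 and Heyl had an unadjusted p under 0.05, against 8.58% of all genes lower at that p, and none passed after adjustment. Notch3 differed by -0.58 (SE 0.156, limma p = 0.00275, adjusted p = 0.220, exact permutation p = 0.0159). Hey1 differed by -0.68 (SE 0.208, limma p = 0.00612, adjusted p = 0.227, exact permutation p = 0.0238) and Heyl by -0.64 (SE 0.210, limma p = 0.00942, adjusted p = 0.241, exact permutation p = 0.0317). These 3 genes gave nearly the same values with either way of counting. Weighting transcripts by length, a choice made with the values known, which counts a transcript by the reads it stands for, gave 10 of 10 lower with a median of -0.36, against 57.2% of all genes, and the same 4 genes at an unadjusted p under 0.05, against 8.89%. These weighted values are not TPM, and the added 1 shrinks larger values less. For Notch3 the weighted means were 35.5 and 22.3. Its mean differed by -37.1%, against -36.9% for TPM, but by -0.67 in place of -0.57 in log2.

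**Figure D3:**
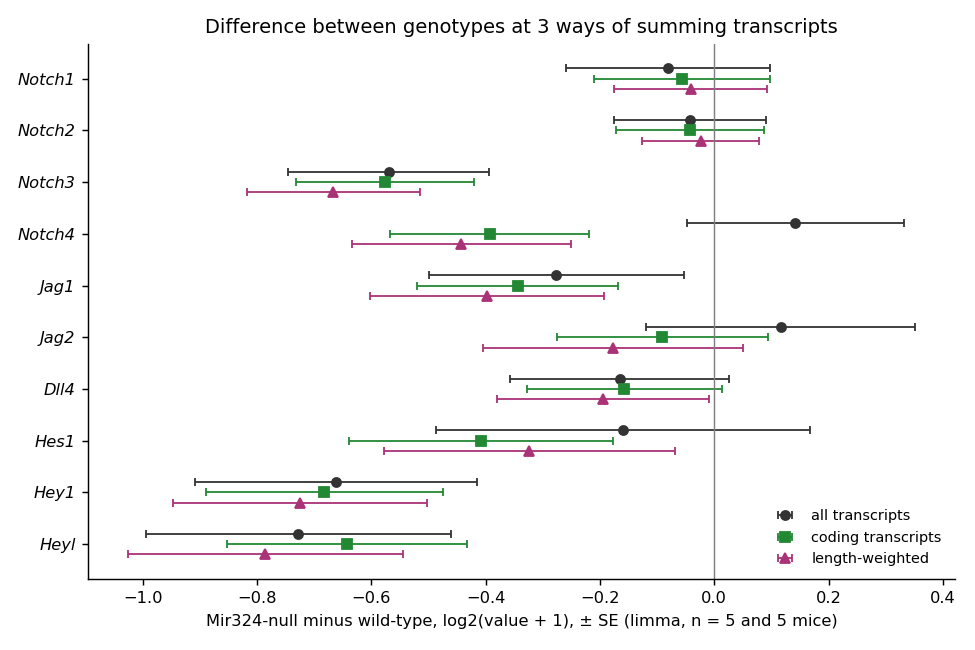
Difference between null and wild-type mice of each gene on the log2(value + 1) scale with its SE, where 0 is no difference. The value is TPM from all transcripts, TPM from coding transcripts only, or TPM weighted by length and rescaled. The added 1 shrinks larger values less, so sizes are not strictly comparable between the 3. Notch3, Hey1 and Heyl lie between -0.57 and -0.79 by all 3 ways of counting, and Notch4 is at 0.14, -0.39 and -0.44.

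Whether the receptors kept their proportions was examined with log2 ratios of (TPM + 1) within each mouse, which largely cancel a factor common to a library. These ratios, 12 pairs of genes of the same class, were chosen with the values known. The ratio of Notch1 to Notch3 was 0.83 ± 0.206 in wild-type and 1.31 ± 0.114 in null mice (log2, SD, n = 5 each), higher by 0.49 with no overlap between the groups (exact permutation p = 0.00794, adjusted over the 12 ratios 0.0317). The ratio of Notch2 to Notch3 was 1.42 ± 0.293 and 1.95 ± 0.123, higher by 0.53, again with no overlap (exact permutation p = 0.00794, adjusted over the 12 ratios 0.0317). Over all transcripts, Notch3 relative to either abundant receptor was thus lower in each null mouse than in any wild-type mouse.

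The ratio of Notch3 to Notch4 was 0.39 ± 0.265 in wild-type and -0.33 ± 0.308 in null mice (exact permutation p = 0.00794, adjusted over the 12 ratios 0.0317). Over coding transcripts that difference went from -0.71 to -0.18 (exact permutation p = 0.0794). The differences of the other two ratios were of the same size over coding transcripts, 0.52 for Notch1 to Notch3, where the groups overlapped (exact permutation p = 0.0159), and 0.53 for Notch2 to Notch3, where they did not (exact permutation p = 0.00794), but adjusted over the 12 ratios both came to 0.0952. The number of ratios with an adjusted p under 0.05 was 3 over all transcripts, 0 over coding transcripts, and 0 without null 1, null 2 or null 5. No ratio could pass alone: 0.00794 is the smallest p the test can give, and over coding transcripts, where only Notch2 to Notch3 had it, it came to 0.0952. The 3 that passed were tied at that p and all include Notch3, so these numbers depend on ties. No share of other gene pairs without overlap is given here.

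**Figure D4:**
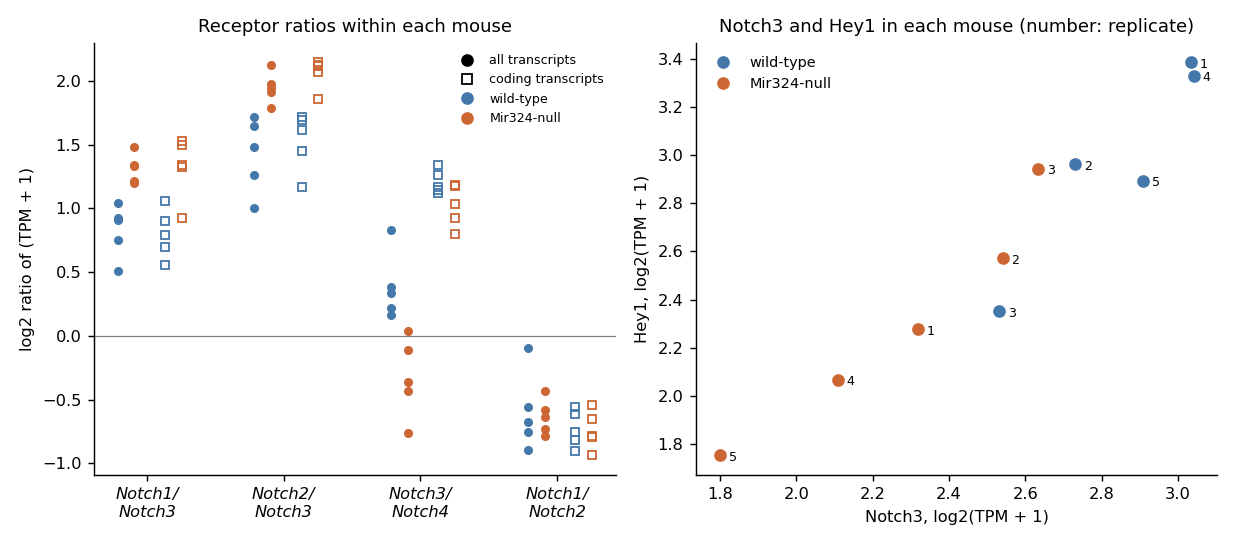
Left, log2 ratios of (TPM + 1) between receptors, 1 point per mouse, over all (filled) and coding (open) transcripts, where the genotypes do not overlap for Notch2 to Notch3 in either count. Right, Notch3 against Hey1 on log2(TPM + 1) over all transcripts, with points numbered by replicate and r = 0.963.

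Correlations among the 10 genes were computed across the 10 mice. Of 45 pairs, 45 had a Pearson correlation above 0 on log2(TPM + 1), with a median of 0.56 over pairs, but with TPM scaled by median ratios 8 of the 45 were below 0, the lowest at -0.29 for Notch2 and Notch4, and the median was 0.38. After adjustment over the 45 pairs, 10 pairs passed by Pearson's r, 4 by Spearman's rho and 4 by both. The closest pair was Notch3 and Hey1, with r = 0.963 (permutation p = 2e-05, adjusted 0.0009) and rho = 0.952 (permutation p = 0.00012, adjusted 0.0054). It was 0.946 for deviations from the genotype means and 0.927 without the 2 mice farthest from the median of Notch3. Hey1 and Heyl had r = 0.945 (permutation p = 0.0001, adjusted 0.00225) and rho = 0.927 (permutation p = 0.00039, adjusted 0.00877), and 0.888 without the 2 farthest mice. Notch3 and Heyl had r = 0.927 (permutation p = 0.00019, adjusted 0.00225) and rho = 0.903 (permutation p = 0.00077, adjusted 0.0115), and 0.815 without them.

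The fourth pair, Notch4 and Jag2, had r = 0.915 over all transcripts (permutation p = 0.0002, adjusted 0.00225; rho = 0.842, permutation p = 0.00374, adjusted 0.0421) but 0.465 over coding transcripts (permutation p = 0.177, adjusted 0.210). For Notch3 and Hey1 the coding value was 0.942. All points share libraries, and a common factor of a library moves every gene in it. Null 5 was the lowest mouse for 7 of the 10 genes and wild-type 1 the highest for 5, and these are the libraries with the highest and lowest haemoglobin share, 26.1% and 11.2%. Wild-type 5, with a share of 11.7%, was the highest for 0 and the lowest for 2 of the genes. Whether the haemoglobin share has a part in these correlations was not tested. With TPM scaled by median ratios the correlation of Notch3 and Hey1 was 0.954.

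The genes most like a receptor, a ligand and 2 targets over the 10 mice, chosen by rule as Notch1, Dll4, Hes1 and Hey1, were found by Pearson's r over all genes tested, as a description without a test. Notch1 was closest to Zfp768 (r = 0.930), Peli2 (0.920) and Ednra (0.915). Dll4 was closest to Sectm1b (0.959), Zfp13 (0.955) and Cdon (0.953). Hes1 was closest to Syt11 (0.979), Slc22a17 (0.950) and Yif1a (0.948), and Hey1 to Dkk1 (0.978), which encodes a Wnt antagonist, Mageh1 (0.975) and Ccdc194 (0.972). The number of genes with r above 0.9 was 4 for Notch1, 60 for Dll4, 55 for Hes1 and 256 for Hey1. Notch3 and Heyl were added after their values had been seen, and had 114 and 154 genes with r above 0.9. Notch3 was closest to Cblb (0.989), Dkk1 (0.980) and Olfml2a (0.967). Heyl was closest to Pdgfrb (0.977), which is in the smooth muscle and pericyte marker list, Dmp1 (0.975), which is in the osteoblast and osteocyte list, and Zhx2 (0.972).

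Markers of the cells in which these genes are known were compared beside them. The summed TPM of 10 smooth muscle and pericyte markers ranged from 82.4 to 139 in wild-type and from 56.0 to 102 in null mice (exact permutation p = 0.0476). Of the 9 tested 8 were lower, and the median difference was -0.34. Rgs5 and Kcnj8 had the largest differences, at -0.74 and -0.66. The smooth muscle genes Myh11, Tagln and Acta2 were at -0.21, -0.12 and 0.04. Of 16 endothelial markers, 14 were lower, with sums of 229 to 325 and 213 to 275 TPM (exact permutation p = 0.317). All 11 osteoblast and osteocyte markers were lower, with sums of 6506 to 15029 and 3649 to 7507 TPM (exact permutation p = 0.0159). Of the 9 chondrocyte markers tested 8 were lower, with sums of 1938 to 6173 and 1637 to 2928 TPM (exact permutation p = 0.143). Prg4 made up most of these sums, averaging 2901.6 TPM for wild-type and 1737.5 TPM for null libraries. The 6 osteoclast markers tested were lower (exact permutation p = 0.0397 for their sum) and the 7 erythroid markers higher (exact permutation p = 0.103). All 8 B lineage markers were lower (exact permutation p = 0.103). Median differences were -0.91 for the osteoblast and osteocyte, -0.66 for the chondrocyte and -0.97 for the osteoclast list. They were -0.20 for the endothelial, -0.44 for the B lineage and 0.44 for the erythroid list. Of 7 fibroblast and synovial lining markers 5 were higher, but their summed TPM averaged 1069 in wild-type and 901 in null mice (exact permutation p = 0.659). Dcn, itself lower, held most of that sum, at 968 and 781 TPM. Each permutation p given for a list tests its summed TPM and not its count of higher or lower markers. Of 3 skeletal muscle markers tested 2 were higher, with sums of 14.5 to 16.6 TPM in wild-type and 15.4 to 58.4 TPM in null mice (exact permutation p = 0.0397). For neutrophils 7 of 8, for T cells 5 of 7 and for macrophages 2 of 7 were lower (exact permutation p = 0.643, 0.960 and 1), but for neutrophils 4 of 8 and for T cells 3 of 7 with median ratio scaling. The counts of lower markers in the smooth muscle, chondrocyte, osteoblast and osteoclast lists were the same with median ratio scaling, quantile normalization and the haemoglobin rescaling. No gene of these lists passed the adjusted p. The part of any of these in the values of Notch3, Hey1 and Heyl was not tested.

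The rest of the pathway was followed in a list of 60 genes, of which 53 were tested. None had an adjusted p under 0.05. Of the 53, 16 were higher and 37 lower (69.8%, against 60% of all genes tested), and their median was -0.07 against -0.05 over all genes. With median ratio scaling 31 of 53 were lower, against 49.3% of all genes, and with the haemoglobin rescaling 26, against 42.5%, so the direction of the list rests on the scaling. At an unadjusted p under 0.05 there was 1 higher gene and 2 lower genes, against 4.28% and 7.3% of all genes in those directions. Ctbp1, a corepressor, was between 145 and 185 TPM in wild-type and between 190 and 218 TPM in null mice, a difference of 0.23 (SE 0.0855, limma p = 0.0194, adjusted p = 0.350, exact permutation p = 0.00794). Psenen, a subunit of γ-secretase, was between 147 and 178 TPM and between 125 and 147 TPM, a difference of -0.24 (SE 0.0878, limma p = 0.0203, adjusted p = 0.354, exact permutation p = 0.00794). The genotypes did not overlap for either gene, as for 0.881% of all genes in the higher and 1.06% in the lower direction. Numbl, a relative of the Notch inhibitor Numb, differed by -0.46 (SE 0.199, limma p = 0.0400, adjusted p = 0.412, exact permutation p = 0.0635) with overlapping groups.

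By role, none of the 8 groups had a gene past the adjusted threshold. Over all genes tested 60% were lower, or 42.5% with the haemoglobin rescaling, beside which the counts below stand. The proteases that process the receptor were 3 higher and 7 lower of 10, with a median of -0.06, but 7 higher and 3 lower with the haemoglobin rescaling. The nuclear complex around RBPJ was 4 higher and 5 lower of 9, and the corepressors were 5 higher and 6 lower of 11, both with a median of -0.01, which was above 0 with each of the 3 other scalings. The glycosyltransferases that modify the receptor, among them Lfng, were 1 higher and 5 lower of 6, and the ubiquitin ligases that act on ligands were lower in 4 of 4 but in 2 of 4 with the haemoglobin rescaling, with medians of -0.10 and -0.09. Genes of receptor turnover and inhibition were 3 higher and 7 lower of 10. Of the other target genes only Nrarp and Hes6 reached the testing threshold, at -0.34 (limma p = 0.0522, adjusted p = 0.438, exact permutation p = 0.0635) and -0.21 (limma p = 0.142, adjusted p = 0.599, exact permutation p = 0.183), while Hes5, Hes7 and Hey2 averaged below 1 TPM. Of the other ligands only Dll1 was tested, at -0.27 (limma p = 0.127, adjusted p = 0.580, exact permutation p = 0.0794), and Dll3, Dlk1, Dlk2 and Dner averaged below 1 TPM.

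**Figure D5:**
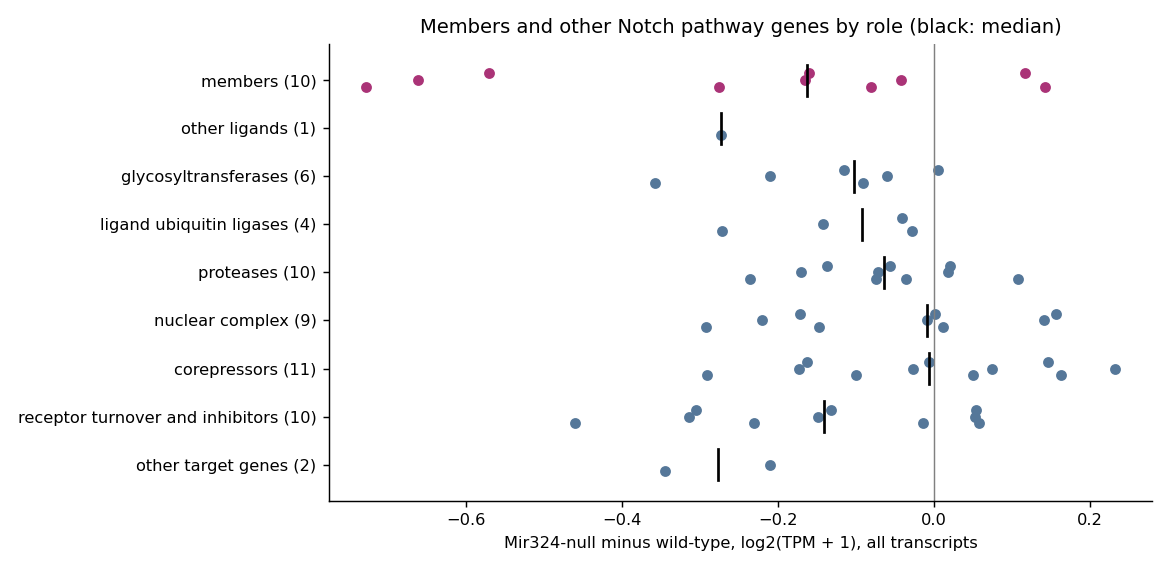
Difference between null and wild-type mice on the log2(TPM + 1) scale for the 53 tested genes of the pathway list, grouped by role, beside the 10 receptor, ligand and target genes. Points of the list lie between -0.46 and 0.23, and Notch3, Hey1 and Heyl lie below that range.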

How the data were processed

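The authors deposited 1 table of TPM values for 116912 Ensembl mouse transcripts in 10 libraries, 1 column each, and every column added up to the same total. The submitters' processing notes name kallisto, a pseudoalignment program, DESeq2 and the build GRCh38, a human build that does not match the mouse identifiers. Versions, the transcript index and the use of strand are not given in the sources used here. Of the transcripts 115440 matched GENCODE M21 (GRCm38) once the version number was dropped, and the 1472 unmatched held 0.275% to 0.356% of the TPM. Opposite-strand genes overlap Notch1, Notch3, Dll4 and Notch4 in the annotation (for Notch4 the pseudogene Gm20462, listed at 0 in every library), and their reads cannot be told apart without strand. TPM was summed per gene, and 13841 genes averaging 1 TPM or more were tested as log2(TPM + 1) with limma 3.58.1 in R 4.3.3 (trend, two-sided, Benjamini-Hochberg over all genes tested). Exact permutation tests were two-sided over all 252 splits of the 10 mice, and correlations used 100000 permutations. Steps were tested on simulated data.

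Named genes were the 10 members, the pathway genes with an adjusted p under 0.05 or, as there were none, up to 5 per direction with an unadjusted p under 0.05, and the 3 genes most like Notch1, Dll4, Hes1 and Hey1. Other pathway genes named by role were chosen for their role. Members and lists were chosen with earlier results of these data known. Nothing states that the mice shared no litter, and no batch is given.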

Additional observations from a re-analysis of the deposited data

Results flagged for a closer look

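In each group of 5 mice, the highest or lowest value was picked out where its gap to the nearest other value took up more of the group's range than Dixon's test allows. This happened in 3 of 40 groups, and chance gives about 1 in 20. All of these were wild-type 1, the library that stood apart on the first principal component. For Hes1 over all transcripts it had 33.7 TPM, where the other wild-type mice had 8.74 to 13.1 TPM. For Hes1 over its coding transcript it had 21.8 TPM, where the others had 8.22 to 11.2 TPM. For Dll4 over its coding transcript it had 2.77 TPM, where the others had 1.22 to 1.35 TPM.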

How the results depend on the processing

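Differences are on the log2(TPM + 1) scale, with the weighted value in place of TPM where transcripts are weighted by length. Those of Notch3, Hey1, Heyl, Jag1 and Dll4 kept their direction in every alternative in which they were tested. Some alternatives change only the filter, the replicate block or limma's estimate of the spread, and these cannot change a difference. Counting transcripts weighted by length, and the ratios, were chosen after seeing the data. Notch4 (0.14) came to -0.39 over coding transcripts and -0.44 weighted by length, and Jag2 (0.12) to -0.091 and -0.18, and to -0.014 without wild-type 5 and -0.054 without null 1 and was highest at 0.24 without wild-type 1. Notch2 (-0.04) came to 0.0086 with median ratio scaling, 0.043 with TPM rescaled without haemoglobin genes, and 0.0023, 0.0012 and 0.034 without wild-type 2, null 4 and null 5, and was lowest at -0.11 without null 2. Notch1 (-0.08) came to 0.00066 with the haemoglobin rescaling and 0.032 without null 5 and was lowest at -0.18 without wild-type 3. Leaving out 1 mouse, Hes1 (-0.16) ranged from -0.31 without null 3 to 0.16 without wild-type 1. The median of all genes moved from -0.05 to 0.00323 with median ratios and 0.04 with the haemoglobin rescaling.

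Of the 10 genes, 2 were higher in null mice, 4 with the haemoglobin rescaling, 0 over coding transcripts, 0 weighted by length, 0 of the 5 tested at a mean of at least 5 TPM, and 1 to 4 leaving out 1 mouse. Genes passing the adjusted p numbered 0, and 0 to 1 leaving out 1 mouse (1 without wild-type 3, wild-type 4 or null 1). Ratios passing numbered 3, but 0 over coding transcripts, 0 weighted by length, and 0 to 4 leaving out 1 mouse (4 without wild-type 1). These numbers depend on ties near the smallest p the exact test can give. Whether equal replicate numbers pair the mice is unknown. Correlations of deviations between a wild-type and a null mouse were -0.144 to 0.0564 for equal numbers and -0.196 to 0.230 for different numbers. They cannot decide it, since litter and batch are not given. With the replicate number as a block 0 genes passed, with 1168 at an unadjusted p under 0.05 (limma). The cause of these changes was not tested. Without read counts, what depth allows for genes near 1 TPM is unknown.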
